A study of Homo sapiens with 4 samples.

Results

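The genes described here are the expressed ZNF genes of NOMO-1 cells, the zinc finger genes whose annotated symbol is ZNF followed by digits alone. They were chosen by level. Each ZNF gene was represented by its brightest probe set, by mean log2 intensity over the 4 arrays, and genes with a mean of 8 or more were kept. This selected 236 of the 439 ZNF genes on the array, or 53.8%, out of 18417 genes that had a probe set with a single symbol. The choice used the mean of all 4 arrays and not the difference between groups, so the level of a member is a description while its difference was tested. All 236 members lay above the filter on dim genes, which ended at a mean of 6.70, and all were tested among 12892 genes. Of the other 203 ZNF genes, 96 were tested at a mean under 8 and 107 were left out as dim.

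The question was how these genes differ when ZFX is reduced. The ZFX knock-down group held 1 array of NOMO-1 cells with the hairpin ZFX-SH1 and 1 with the hairpin ZFX-SH3. The control group, labelled ZFX wild type, held 1 array of cells given a GFP lentivirus (LEN-GFP) and 1 of cells given a scrambled hairpin (SCR). NOMO-1 is an established line from a human monocytic leukaemia, and all 4 cultures were transduced at a multiplicity of infection of 1 and harvested 48 h after selection, hairpin and control cells alike. Total RNA was taken with Trizol, and 200 ng was labelled with biotin through the Ambion WT kit. Each construct was measured on 1 array, so no array repeats a construct, the LEN-GFP control is not labelled as carrying a hairpin, and the p-values reflect the spread of constructs and arrays, which cannot be told apart.

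Most ZNF proteins carry a row of C2H2 zinc fingers, each of which grips a few bases of DNA, so that a long row can recognise a long site. Many also carry a KRAB box, which recruits the corepressor TRIM28 and through it the histone methyltransferase SETDB1 and heterochromatin protein, and these KRAB genes are best known for silencing retrotransposons. They lie in dense clusters, above all on chromosome 19, where neighbours arose by duplication. Others have no KRAB box and act as activators at promoters, as partners of corepressors or as RNA-binding proteins. ZFX is itself a zinc finger transcription factor that binds near the start sites of many genes, and ZNF711 is one of its closest relatives.

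Promoters are shown for 4 members, because ZFX is known to bind at start sites through a motif with the core AGGCCT, which reads the same on both strands. The sequences are RefSeq's for GRCh38.p14, 300 bases each, from 250 bases before to 50 bases after the annotated start, read 5′ to 3′ on the strand of the gene. Capitals mark AGGCCT. ZNF32 (chr10:43648750-43649049, minus strand) and ZNF275 (chrX:153333903-153334202, plus strand) had the lowest differences of all members between hairpins and controls. ZNF724 (chr19:23250345-23250644, minus strand) and ZNF611 (chr19:52734995-52735294, minus strand) held the motif and were among the 10 members with the widest gap between groups on the lower and on the higher side. ZNF468 of the higher 10 held it as well.
ZNF32: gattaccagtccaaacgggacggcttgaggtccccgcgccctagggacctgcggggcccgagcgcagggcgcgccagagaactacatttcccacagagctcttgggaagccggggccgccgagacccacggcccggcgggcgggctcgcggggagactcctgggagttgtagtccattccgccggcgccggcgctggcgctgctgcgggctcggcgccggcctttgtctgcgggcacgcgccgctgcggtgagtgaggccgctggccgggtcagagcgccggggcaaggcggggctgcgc
ZNF275: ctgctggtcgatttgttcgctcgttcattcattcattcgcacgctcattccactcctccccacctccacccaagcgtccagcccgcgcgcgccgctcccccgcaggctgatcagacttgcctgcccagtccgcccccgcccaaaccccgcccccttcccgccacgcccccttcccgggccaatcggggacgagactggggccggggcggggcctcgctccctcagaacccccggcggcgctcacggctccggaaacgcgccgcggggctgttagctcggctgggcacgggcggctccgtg
ZNF724: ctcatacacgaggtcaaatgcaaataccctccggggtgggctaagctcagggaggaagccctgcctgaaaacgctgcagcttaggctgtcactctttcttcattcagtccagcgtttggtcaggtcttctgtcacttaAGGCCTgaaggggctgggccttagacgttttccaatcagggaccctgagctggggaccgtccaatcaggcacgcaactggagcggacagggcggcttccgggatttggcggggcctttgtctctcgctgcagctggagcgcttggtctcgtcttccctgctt
ZNF611: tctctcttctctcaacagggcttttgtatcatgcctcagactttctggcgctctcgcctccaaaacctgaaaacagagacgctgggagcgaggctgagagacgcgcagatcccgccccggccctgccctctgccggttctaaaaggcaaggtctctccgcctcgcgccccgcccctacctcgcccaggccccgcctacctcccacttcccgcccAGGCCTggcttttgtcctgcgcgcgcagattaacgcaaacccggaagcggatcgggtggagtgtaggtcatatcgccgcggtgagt
The first base of the motif stood at -112 from the start in ZNF724 and at -36 in ZNF611. The ZNF32 and ZNF275 windows did not hold these letters, and neither did those of ZNF426 and ZNF589, which says nothing of ZFX binding elsewhere.

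Promoters in the RefSeq table were found for 203 of the 236 members, 252 promoters in all. AGGCCT was present in 43 of the 252, or 17.1%, against 10.9% of all 35116 promoters of the same length and 11.0% of the 14624 promoters of tested genes. The median GC content was 62.3% for the members' promoters, 58.7% for all promoters and 64.7% for those of tested genes. Members on chromosome 19 held it in 26 of 106 promoters (24.5%), and members on other chromosomes in 17 of 146 (11.6%). The 42 members with the motif had a median difference of -0.04 between hairpins and controls, with 25 of them lower. The 161 members with a promoter and no match had a median of -0.03, with 86 lower. Both hairpin arrays lay beyond both controls, in either direction, for 21.4% of the members with the motif and 39.1% of those without. Of all tested genes 19% lay under both controls and 18.2% above them, and the difference between members with and without the motif was not tested.

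The arrays were alike in overall brightness. The median intensity over all probe sets was 189.0 on SH1 and 186.0 on SH3, against 184.8 on LEN-GFP and 189.8 on SCR. ZFX had a log2 intensity of 10.13 on SH1 and 10.12 on SH3, against 10.65 on LEN-GFP and 10.66 on SCR, a level of 69.3% of control (difference -0.53, SE 0.10). Both hairpin arrays were under both controls, and limma's adjusted p was 0.797 over all tested genes. The monocytic label was met by LYZ (mean log2 14.29), CD68 (13.38) and MPO (13.07), while CD14 stood at 7.40. Of the defining genes of other cell types, those of T cells reached at most 6.81, of erythroid cells 6.76, of B cells 7.87 and of fibroblasts 8.25, and of epithelium the highest was 10.03 for KRT18. In RNA from whole cultures, fewer cells of a kind and less RNA per cell cannot be told apart.

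The members ranged from 8.01 to 12.29 in mean log2 intensity, with a median of 9.06 and quartiles at 8.52 and 9.67. Probe sets differ in how strongly they bind, so these values do not rank the genes by RNA copies. The brightest was ZNF207, a spindle assembly protein that binds BUB3, at 12.32 on SH1 and 12.19 on SH3, against 12.29 on LEN-GFP and 12.37 on SCR. The chromosome 19 genes ZNF626 and ZNF257 followed at means of 12.03 and 11.97. Each of these 3 had overlapping groups, with differences of -0.07, 0.06 and -0.06. ZNF521, a transcriptional cofactor of early blood progenitors, had 12.00 on SH1 and 11.90 on SH3, against 11.87 on LEN-GFP and 11.76 on SCR. ZNF93, a KRAB protein known to repress L1 retrotransposons, had 11.63 on SH1 and 11.42 on SH3, against 11.29 on LEN-GFP and 11.31 on SCR. For both genes the hairpin arrays stood above the controls, with differences of 0.14 (SE 0.09) and 0.23 (SE 0.11) that did not pass.

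At the limit of 8, the members just inside were ZNF337 at 8.01, ZNF17 at 8.01 and ZNF653 at 8.02. The ZNF genes just outside were ZNF688 at 7.98, ZNF581 at 7.96 and ZNF835 at 7.96. For 9 members the mean of the hairpin arrays was under 8 while that of the controls was not, ZNF32 among them, and for 1 member the reverse held. A total of 11 members had several probe sets, of which the brightest was used. For ZNF626 it stood at 12.03 with the other at 5.91, for ZNF257 at 11.97 with the other at 5.18, and for ZNF208 at 9.77 with the others at 9.18 and 5.51. ZNF718 had a pair of probe sets with identical values on all 4 arrays. Zinc finger genes of 1 cluster are near copies of each other, so a probe set can also take up RNA of a paralog, and how far this occurred was not tested. ZNF711, the relative of ZFX, was dim at a mean of 5.43 and was not tested.

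The 236 members did not move together in either direction. Their median difference was -0.02 on the log2 scale, hairpins minus controls, with quartiles at -0.13 and 0.07 and a range from -0.94 to 0.44. The median over all 12892 tested genes was -0.0029. For single hairpins the members' median was 0.0077 on SH1 and -0.05 on SH3, and with both hairpins it was 0.020 without LEN-GFP and -0.058 without SCR, so its sign was not stable. Of the members 125 were lower and 111 higher, and 75% differed by less than 0.2, against 74.0% of all tested genes. No member passed an adjusted p of 0.05 in limma, as was the case for 0% of all tested genes, and the smallest adjusted p of a member was 0.797. At an unadjusted p under 0.05, limma gave 7 members lower (2.97%, where 3.26% of all tested genes were) and 2 higher (0.847%, where 2.78% were). With 1 array left out this count of 9 moved, up without SH1 or SH3 and down without LEN-GFP or SCR. The matching counts over all tested genes were not made.

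Both hairpin arrays lay under both controls for 46 members (19.5%), and 19% of all tested genes did so. Both lay above both controls for 33 members (14.0%), against 18.2% of all tested genes. The shares of members were thus near the background or under it. With 1 array left out, which makes overlap rarer, the lower count ran from 62 (without LEN-GFP) to 109 (without SH1). The higher count ran from 50 (without SCR) to 88 (without LEN-GFP). Neither was counted over all tested genes, so these counts have no background. By level, the 110 members between 8 and 9 had a median of -0.03 with 62 lower, and the 92 between 9 and 10 also had -0.03 with 51 lower. The 34 members at 10 or more had a median of 0.03, with 12 lower and 22 higher. The sign of their median differed between the hairpins, at 0.09 on SH1 and -0.03 on SH3. Among all 4185 tested genes at 10 or more, 49.2% were lower. Within the groups, SH3 and SH1 differed by a median of 0.146 in absolute value over the members, and SCR and LEN-GFP by 0.111. SH3 and SH1 were more than 0.3 apart for 59 members, and SCR and LEN-GFP for 22. SCR lay under LEN-GFP for 164 members, with a median of -0.08, which exceeds the median difference between the groups in size. Over all tested genes the median of SCR minus LEN-GFP was -0.03, and over those at 8 or more it was -0.06. Among the members SCR minus LEN-GFP ranged from -0.71 for ZNF616 to 0.43 for ZNF267.

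**Figure D1:**
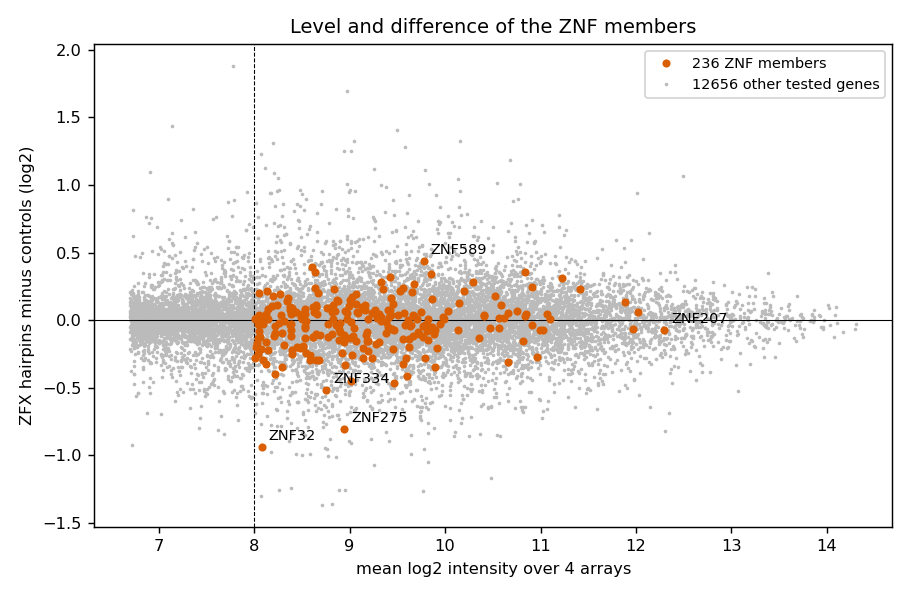
Mean log2 intensity over 4 arrays (x axis) against the log2 difference of ZFX hairpins minus controls (y axis) for the 236 ZNF members (orange) and the other tested genes (grey), with the level limit of 8 as a dashed line. Members lie around 0 at every level, and ZNF32 (-0.94) and ZNF275 (-0.81) stand lowest.

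ZNF32 and ZNF275 had the widest gap between hairpin and control arrays of all members. ZNF32, a short zinc finger protein encoded on chromosome 10, had a log2 intensity of 7.71 on SH1 and 7.50 on SH3, against 8.60 on LEN-GFP and 8.49 on SCR. ZNF275, encoded on the X chromosome, had 8.45 on SH1 and 8.62 on SH3, against 9.41 on LEN-GFP and 9.28 on SCR. For both genes the groups were apart by far more than the 2 arrays of either group. ZNF32 stood at 52.2% of its control level (difference -0.94, SE 0.12, unadjusted p 6.57e-04) and ZNF275 at 57.2% (-0.81, SE 0.13, unadjusted p 0.00167). Both had an adjusted p of 0.797 in limma. Among the 12892 tested genes they ranked 22 and 45 from the lowest difference. ZNF32 passed the level limit of 8 through its controls, with a mean of 8.55 there and 7.61 on the hairpin arrays.

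Of the 10 members with the widest gap on the lower side, the other 8 were closer to their controls. ZNF426, a KRAB gene of chromosome 19, had 8.77 on SH1 and 8.82 on SH3, against 9.20 on LEN-GFP and 9.29 on SCR (difference -0.45, SE 0.11). ZNF410, a transcription factor known to activate CHD4, had 9.75 on SH1 and 9.70 on SH3, against 10.11 on LEN-GFP and 10.03 on SCR (-0.35, SE 0.11). Neither gene had overlapping groups, and each array lay within 0.2 of the other of its group. CHD4 itself, the remodeller of the NuRD complex, was at 10.99 on both SH1 and SH3, against 11.00 on LEN-GFP and 11.04 on SCR (difference -0.03, SE 0.10). ZNF189 had 9.36 on SH1 and 9.11 on SH3, against 9.79 on LEN-GFP and 9.61 on SCR (-0.47, SE 0.15). ZNF398 had 7.99 on SH1 and 8.05 on SH3, against 8.53 on LEN-GFP and 8.31 on SCR (-0.40, SE 0.12). The remaining 4 differed less, ZNF773 by -0.30, ZNF558 by -0.30, ZNF724 by -0.28 and ZNF593 by -0.25. ZNF593 takes part in the assembly of the large ribosomal subunit. Limma's adjusted p was 0.797 for each of these 8.

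The 10 members with the widest gap on the higher side differed by 0.15 to 0.44. ZNF589, a KRAB gene first described in blood stem cells, had 10.02 on SH1 and 9.97 on SH3, against 9.64 on LEN-GFP and 9.47 on SCR. Its level was 135% of control (difference 0.44, SE 0.12, adjusted p 0.797 in limma), the highest difference among the members. ZNF641 had 9.98 on SH1 and 10.06 on SH3, against 9.73 on LEN-GFP and 9.62 on SCR (0.34, SE 0.12). ZNF267 had 11.02 on both SH1 and SH3, against 10.44 on LEN-GFP and 10.88 on SCR (0.36, SE 0.17). Its hairpin arrays were alike and the control pair was wide apart, so that most of the distance was to LEN-GFP. ZNF143, an activator of housekeeping and small nuclear RNA promoters, had 9.18 on SH1 and 9.14 on SH3, against 8.96 on LEN-GFP and 8.99 on SCR (0.19, SE 0.11). ZNF124 differed by 0.28, ZNF654 by 0.23, ZNF710 by 0.23, ZNF487 by 0.22, ZNF611 by 0.19 and ZNF468 by 0.15. The adjusted p in limma was 0.823 for ZNF468 and 0.797 for the other 9.

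**Figure D2:**
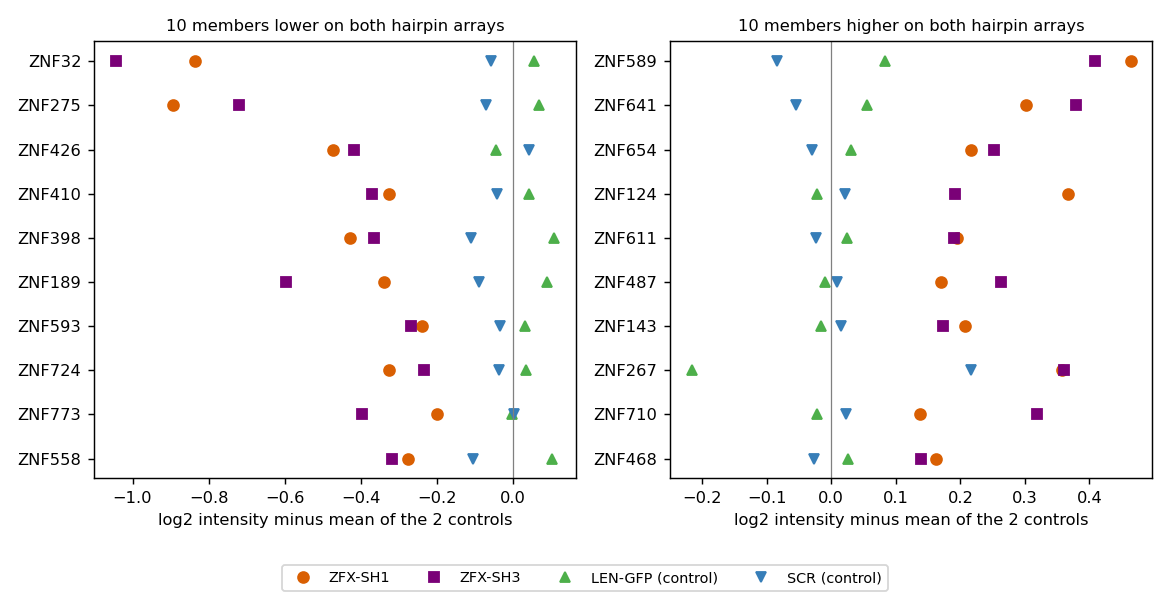
Log2 intensity of each array minus the mean of the 2 controls for the 10 members with the widest gap lower (left) and higher (right), where the x axes of the panels have different scales. Circles and squares are the ZFX-SH1 and ZFX-SH3 arrays, triangles the controls, and in every row shown both hairpin arrays lie on 1 side of both controls, for ZNF267 beside controls that are 0.43 apart.

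The hairpins were also set 1 at a time against the same controls, in fits where the lone array is assumed to vary like the control pair. Since both fits share the controls, their results are given side by side and no overlap was drawn from them. With SH1 alone limma called 0 members higher, against 0.171% of all tested genes, and 1 member lower (0.424%), against 0.248%. That member was ZNF275, at -0.89 (adjusted p 0.0438), and no member was called after median centring, without the intensity trend or with no filter on dim genes. With SH3 alone 6 members were called higher (2.54%), where 6.27% of all tested genes were, and 11 lower (4.66%), where 6.9% were. These 17 members became 11 after median centring of the arrays. The shares with SH3 were lower for the members than for all tested genes, a difference that was not tested.

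ZNF334 had the lowest difference of any member on SH3, with a log2 intensity of 9.16 on SH1 and 7.85 on SH3, against 9.09 on LEN-GFP and 8.94 on SCR. SH1 stood beside the controls, and SH3 alone was lower, by -1.17 (adjusted p 0.0017 in limma). ZNF438 had 10.13 on SH1 and 9.17 on SH3, against 9.88 on LEN-GFP and 9.98 on SCR, a difference on SH3 of -0.76 (adjusted p 0.0076). ZNF22 had 9.69 on SH1 and 9.10 on SH3, against 9.80 on both LEN-GFP and SCR, a difference on SH3 of -0.70 (adjusted p 0.0098). For all 3 the SH1 value was within 0.3 of the control mean, at 0.14, 0.20 and -0.11. ZNF32 was called with SH3 at -1.04 (adjusted p 0.0026) and was at -0.83 with SH1 (adjusted p 0.0532). ZNF275 was called with SH3 at -0.72 and ZNF189 at -0.60, where SH1 was at -0.89 and -0.34. The other 5 called lower with SH3 were ZNF69 (-0.69), ZNF532 (-0.55), ZNF485 (-0.55), ZNF195 (-0.52) and ZNF121 (-0.46), of which ZNF195 and ZNF121 are named after their values were seen. Their SH1 values were 0.03, -0.10, 0.23, -0.10 and -0.08.

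On the higher side with SH3 alone, ZNF774 had 8.51 on SH1 and 9.11 on SH3, against 8.36 on LEN-GFP and 8.47 on SCR. ZNF292, a large zinc finger protein mutated in some lymphoid leukaemias, had 11.20 on SH1 and 11.57 on SH3, against 11.14 on LEN-GFP and 11.00 on SCR. In both, SH3 was the highest of the 4 arrays by a wide margin and SH1 lay just above the controls. The SH3 differences were 0.69 for ZNF774, 0.63 for ZNF81, 0.57 for ZNF791, 0.52 for ZNF160, 0.49 for ZNF292 and 0.47 for ZNF652, with adjusted p in limma between 0.0156 and 0.0485. Their SH1 differences were 0.10, 0.08, 0.00, 0.11, 0.13 and 0.07. The hairpins also differed from each other on members that neither fit called. ZNF318 had 9.46 on SH1 and 10.07 on SH3, against 9.70 on LEN-GFP and 9.40 on SCR. ZNF358 had 8.79 on SH1 and 9.39 on SH3, against 9.36 on LEN-GFP and 9.39 on SCR. In ZNF358 it was SH1 that stood apart, and in ZNF318 it was SH3.

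**Figure D3:**
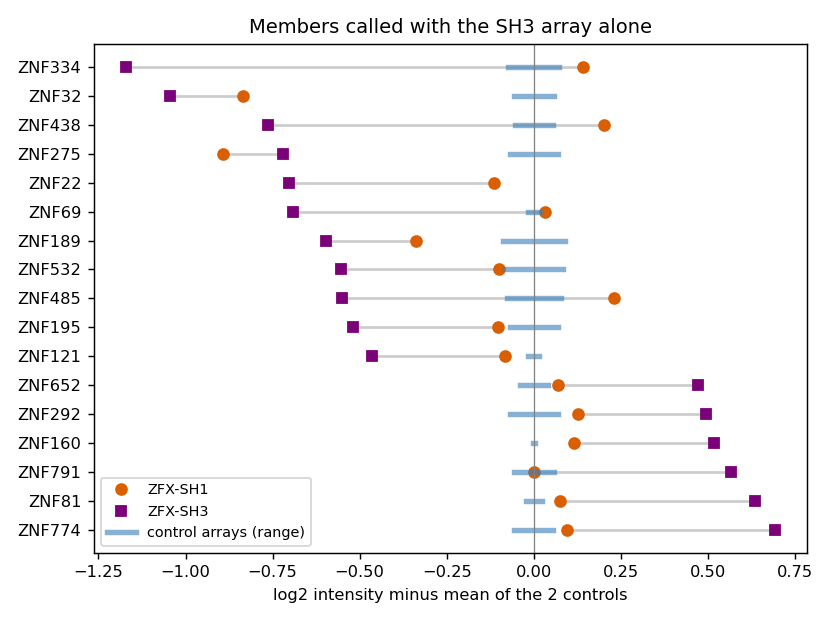
The 17 members called by limma with the SH3 array alone, with the log2 difference from the mean of the 2 controls for SH1 (circles) and SH3 (squares) and the range of the 2 control arrays (blue bars). Of the 17, SH1 and SH3 lie closest together for ZNF275, ZNF32 and ZNF189. Each of these pairs is still farther apart than the median of 0.146 over all members. For ZNF334 SH1 is at 0.14 and SH3 at -1.17.

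The members with a known role were described by lists. The 8 genes of RNA and ribosome biology had a median difference of -0.12, with 7 lower and 1 higher, and 4 of them had both hairpin arrays under both controls. Over all tested genes 50.8% were lower and 19% lay under both controls. ZNF593 (-0.25), ZNF598 (-0.13) and ZNF622 (-0.12) act at the ribosome, where ZNF598 is the ubiquitin ligase that marks collided ribosomes and ZNF622 helps to mature the large subunit. ZNF598 had 8.52 on SH1 and 8.42 on SH3, against 8.65 on LEN-GFP and 8.55 on SCR, and the gap between groups was smaller than the distance between the controls. ZNF326, part of a complex that joins transcription with splicing, differed by -0.11 and the double-stranded RNA binder ZNF346 by -0.09. ZNF638, known for the silencing of unintegrated retroviral DNA, had 10.55 on SH1 and 10.02 on SH3, against 10.40 on LEN-GFP and 10.45 on SCR. Its difference of -0.14 thus joined a higher SH1 and a lower SH3. ZNF106 differed by -0.08 and the splicing factor ZNF830 by 0.05. None of the 8 passed, with adjusted p in limma of 0.797 or more.

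Among activators and other factors that bind promoters, 9 of the 10 listed genes were members, the other being ZNF711. Of these 9, 3 were lower and 6 higher, with a median of 0.02. ZNF143 (0.19) and ZNF410 (-0.35) stood on opposite sides, and the other 7 were within 0.08 of 0. These were ZNF76, the paralog of ZNF143, at 0.03, ZNF148 at 0.07, ZNF281 at -0.05, ZNF384 at -0.07, ZNF335 at 0.01, ZNF131 at 0.05 and ZNF24 at 0.02. ZNF131 (mean log2 11.07), ZNF384 (10.99) and ZNF148 (10.75) were bright, so their small differences were measured well above the dim range.

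Of 11 partners of corepressors, 10 were members and ZNF827 was too dim to be tested. The median of the 10 was 0.07, with 2 lower and 8 higher, and 3 had both hairpin arrays above both controls. Of all tested genes 50.8% were lower and 18.2% lay above both controls. ZNF217, which works with CtBP and is often amplified in carcinomas, had 10.96 on SH1 and 11.10 on SH3, against 10.71 on LEN-GFP and 10.86 on SCR. Its groups did not overlap (difference 0.24, SE 0.12), and limma's adjusted p was 0.797. ZNF652, a partner of the corepressor CBFA2T3, differed by 0.27 and ZNF521 by 0.14, both without overlap. ZNF516 (0.12) and ZNF644 (0.11), a partner of the histone methyltransferases EHMT1 and EHMT2, had overlapping groups. ZNF592, ZNF687 and ZNF532 belong to 1 complex with ZMYND8, and they differed by 0.03, 0.01 and -0.33. ZNF532 had 9.63 on SH1 and 9.17 on SH3, against 9.64 on LEN-GFP and 9.81 on SCR, so that SH3 alone was far from the others. ZNF350, a partner of BRCA1, was at 0.01 and ZNF746, a parkin substrate, at -0.01. The SUMO ligase ZNF451 differed by -0.04.

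Of 10 KRAB genes with known targets, 7 were members, while ZNF91 (5.72) and ZNF10 (6.41) were dim and ZNF263 (7.86) lay under the limit. Of the 7, 4 were lower and 3 higher, with a median of -0.11, at 0.01 on SH1 and -0.23 on SH3. ZNF202 had 8.60 on SH1 and 8.24 on SH3, against 8.65 on LEN-GFP and 8.68 on SCR. ZNF649 had 9.57 on SH1 and 9.48 on SH3, against 9.74 on LEN-GFP and 9.71 on SCR. Both were lower on both hairpin arrays, by -0.24 (SE 0.16) and -0.20 (SE 0.11), and did not pass in limma. ZNF93, also of this list, was higher on both, by 0.23 (SE 0.11). Both hairpin arrays thus lay under both controls for 28.6% of the 7 and above them for 14.3%. Over all tested genes these shares were 19% and 18.2%. ZNF445, a guardian of imprinted methylation, differed by -0.14, with overlapping groups. ZNF268 differed by -0.11 and ZNF460 by 0.0080. ZNF274, which brings SETDB1 to the 3′ ends of other ZNF genes, differed by 0.0013.

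The corepressor that KRAB proteins recruit was described by a list of TRIM28, heterochromatin and NuRD genes, of which 25 of 28 were on the array. Of the 25, 19 were lower and 6 higher, with a median of -0.08, at -0.01 on SH1 and -0.11 on SH3, and 6 (24%) had both hairpin arrays under both controls, against 19% of all tested genes. No gene of the list passed in limma, and 2 of the 25 had an unadjusted p under 0.05, as did 779 of all 12892 tested genes. The shares without overlap and at that unadjusted p were near the background. The share of lower genes was 76%, where 50.8% of all tested genes were lower, a difference that was not tested. RBBP4, a histone chaperone of NuRD, had 12.51 on SH1 and 12.30 on SH3, against 12.85 on LEN-GFP and 12.84 on SCR (difference -0.44, SE 0.10). CBX5, a heterochromatin protein, had 12.43 on SH1 and 12.63 on SH3, against 12.88 on LEN-GFP and 12.85 on SCR (-0.33, SE 0.10). MTA1 differed by -0.20 and was lower on both hairpin arrays. HDAC2 differed by -0.21 with overlapping groups, at 11.44 on SH1 and 10.93 on SH3, against 11.33 on LEN-GFP and 11.45 on SCR. TRIM28 itself had 10.85 on SH1 and 10.91 on SH3, against 11.21 on LEN-GFP and 10.91 on SCR, so that only LEN-GFP stood apart.

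Chromosome 19 carried 104 of the 236 members (44.1%), followed by chromosome 7 with 19 and chromosome 1 with 14. The 104 had a median difference of -0.02, with 55 lower and 49 higher, and the 132 members elsewhere also had a median of -0.02, with 70 lower and 62 higher. Both hairpin arrays lay under both controls for 17 of the 104 (16.3%) and above them for 10 (9.62%). For the 132 members elsewhere these counts were 29 (22.0%) and 23 (17.4%), and for all tested genes the shares were 19% and 18.2%. In genome order, runs of chromosome 19 members were drawn by the sign of the difference between hairpin mean and control mean. The longest runs with 1 sign had 10 genes, and 3 runs had 6 or more, which were picked out after their values were seen. A run from ZNF208 to ZNF383 was lower throughout, from -0.03 to -0.30, with ZNF724 the only one of the 10 whose groups did not overlap. On SH1 alone ZNF507, ZNF302, ZNF146, ZNF529 and ZNF850 were above the control mean, by up to 0.22 for ZNF302. A run from ZNF836 to ZNF160 was higher throughout, up to 0.32. In 5 of its 10 genes (ZNF766, ZNF701, ZNF611, ZNF468 and ZNF160) the groups did not overlap. Among all tested genes 6348 were higher, and 2342 of these lay above both controls. The run was picked by its sign, so the 18.2% over all tested genes, lower ones included, is not a like background. On SH3 alone ZNF836, ZNF480, ZNF808 and ZNF28 were under the control mean, and on SH1 alone ZNF83 was. The third run, from ZNF772 to ZNF134, held 6 lower genes, ZNF773 among them.

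**Figure D4:**
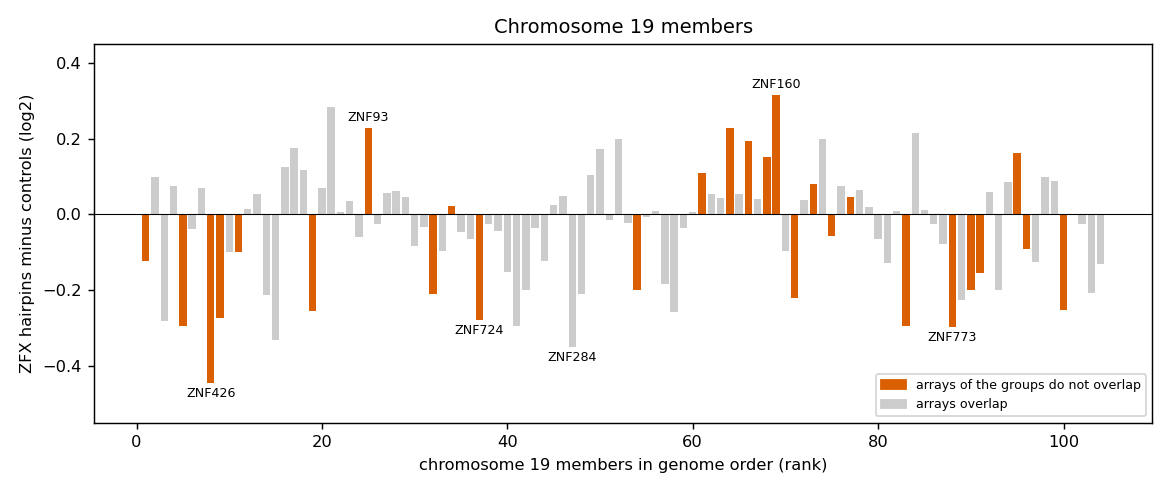
Log2 difference of ZFX hairpins minus controls (bars) for the 104 members on chromosome 19, in genome order along the x axis, with bars in orange where the 2 hairpin arrays lie on 1 side of both controls. Bars of both signs occur along the whole chromosome, with the run of 10 higher genes that ends at ZNF160 (0.32).

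On chromosome 10, in genome order, the members were ZNF438 (-0.28), ZNF487 (0.22), ZNF485 (-0.16), ZNF32 (-0.94), ZNF22 (-0.41) and ZNF503 (0.10). ZNF487 was higher on both hairpin arrays and ZNF32 and ZNF22 lower on both, while the groups overlapped for the other 3. The 4 members on the X chromosome, which also carries ZFX, were ZNF275 (-0.81), ZNF81 (0.36), ZNF41 (0.14) and ZNF182 (-0.03). Members with values of both signs were thus found on each of these chromosomes. ZNF485 and ZNF22, the nearest members on either side of ZNF32, had mean differences under 0 but were not alike on the hairpins. On SH1 alone ZNF485 was at 0.23 and ZNF22 at -0.11, where ZNF32 was at -0.83. On SH3 alone they were at -0.55 and -0.70, where ZNF32 was at -1.04.

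Other zinc finger genes were set beside the members by counts. The families not named ZNF were limited to genes at a mean of 8 or more. The 96 tested ZNF genes at a mean under 8 had a median of -0.09, with 68 lower (70.8%), at -0.03 on SH1 and -0.12 on SH3. Both hairpin arrays lay under both controls for 29 of the 96 (30.2%) and above them for 6 (6.25%), where all 3326 tested genes under 8 had 15.9% and 16.6%. SCR was under LEN-GFP in these genes too, by a median of -0.09, where all tested genes under 8 had 0.04. The 10 ZSCAN and ZKSCAN genes, which carry a SCAN domain, had a median of -0.10 with 7 lower, of which 5 had both hairpin arrays under both controls, and the 8 ZFP genes -0.03 with 5 lower. The 26 ZBTB genes, which pair fingers with a BTB domain, had a median of 0.02 with 12 lower. The 16 KLF and SP genes had a median of 0.07 with 2 lower and 14 higher, and 8 of them had both hairpin arrays above both controls. Of all tested genes 19% lay under both controls and 18.2% above them, and of those at 8 or more 20.1% and 18.7%. In limma 0 genes of any of these families passed, while an unadjusted p under 0.05 was reached by 9 of the 96 ZNF genes, 1 ZSCAN or ZKSCAN gene, 1 ZFP gene, 0 ZBTB genes and 0 KLF or SP genes. That p was reached by 178 of the 3326 tested genes under 8, by 601 of the 9566 at 8 or more and by 779 of all 12892.

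**Figure D5:**
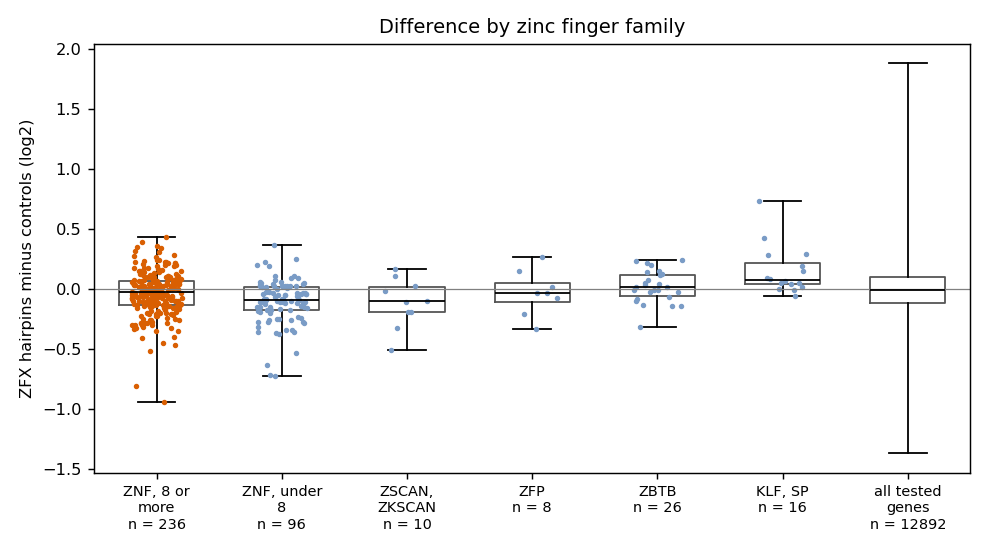
Log2 difference of ZFX hairpins minus controls by zinc finger family and for all tested genes, with a point per gene, the box from the lower to the upper quartile, the line at the median and whiskers to the lowest and highest value (points of all tested genes are not drawn). The members centre at -0.02 and all tested genes at -0.0029.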

How the data were processed

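RNA of 4 NOMO-1 cultures was measured on 1 expression array each. The deposited table gives, for 33297 probe sets, an intensity on a linear scale. Per the submitters' processing notes the authors used Affymetrix Expression Console 1.1 with RMA, which corrects background, normalizes and summarises probes. How RMA's log2 values became linear intensities was not given in the sources used here. Normalization of this kind makes arrays alike, so a change in total RNA per cell would not show.

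Intensities were turned to log2 with an offset of 0. Symbols came from the platform's annotation, in which 19460 probe sets had 1 symbol, 1754 several (33 of them with a ZNF symbol, not used) and 12083 none. All 236 members matched RefSeq and were protein-coding. The lowest 30% of genes by mean were left out. Hairpin and control arrays were compared by limma (version 3.58.1, R 4.3.3), with lmFit followed by eBayes and its intensity trend. Tests were two-sided, p-values were adjusted after Benjamini and Hochberg over all 12892 genes, and the threshold was 0.05. There were 2 residual degrees of freedom and a prior worth 2.95, and the number of arrays limits the precision. The fit was also run on simulated data with independent noise and planted changes larger than the difference of any member. That run does not show how the fit performs on smaller differences.

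The members, lists and tests were chosen with earlier results of these data known. Named by rule were ZFX and ZNF711, the 5 brightest members, the 3 on either side of the limit of 8, the 10 per direction with the widest gap between groups, the 3 per direction with the largest SH3 minus SH1, up to 8 per direction called with 1 hairpin alone, the role lists, and up to 4 genes of the TRIM28 list. Genes named beyond it show position, probe sets or a target and were picked after their values were seen. A division of the members by KRAB box and number of fingers was not analysed here. The alternatives were no filter or a stricter one on dim genes, no intensity trend, median centring, a second quantile normalization, an offset of 32 before log2, the mean of a gene's probe sets, level limits of 7 and 9, and each array left out.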

Additional observations from a re-analysis of the deposited data

How the results depend on the processing

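Without SH1 the count of members called in limma was 17, without SH3 it was 1 and without either control 0, against 0 with all arrays. At an unadjusted p under 0.05 there were 9 members, 18 with the level limit at 7, 5 with it at 9, and 2 (without LEN-GFP) to 53 (without SH1) with 1 array left out. Members lower without overlap numbered 46, and 72 and 22 with the level limit at 7 and 9, while those higher numbered 33 and 20 at a limit of 9. With 1 array left out these counts ran from 62 to 109 and from 50 to 88, since 3 arrays overlap less often by construction. Leaving out SH1 gives the same fit as SH3 alone, and leaving out SH3 the same as SH1 alone. The called members of these fits are thus those of the single hairpins, and the shares over all tested genes given there apply. For the other counts under these alternatives no share over all tested genes was taken, so they have no background. The median difference of the members, -0.02, was 0.020 without LEN-GFP and -0.058 without SCR, so that its sign rests on the choice of control. With SH1 alone 1 member was called, and 0 with no genes left out, with the lowest 50% left out, without the intensity trend, with median centring and at a limit of 9, against 2 after a second quantile normalization and with the mean of all probe sets. With SH3 alone 17 members were called, 11 after median centring and 10 at a limit of 9. Fits of a single hairpin against a single control were not run, since they leave no residual degrees of freedom. For the 78 named genes, 536 of 538 values under the other alternatives kept their direction, the exceptions being ZNF746 (0.0042 after a second quantile normalization) and ZNF274 (-0.00045 after median centring). With 1 array left out, 275 of 312 values kept their direction, and 28 genes had a value of the other sign. These genes ranged as follows: HDAC2 from -0.46 to 0.045, ZNF106 from -0.24 to 0.088, ZNF131 from -0.063 to 0.15, ZNF17 from -0.038 to 0.059, ZNF24 from -0.049 to 0.082, ZNF257 from -0.19 to 0.063, ZNF268 from -0.23 to 0.0053, ZNF274 from -0.094 to 0.096, ZNF318 from -0.095 to 0.52, ZNF334 from -1.17 to 0.14, ZNF335 from -0.033 to 0.058, ZNF346 from -0.22 to 0.044, ZNF350 from -0.030 to 0.049, ZNF358 from -0.58 to 0.021. The others were ZNF438 from -0.76 to 0.20, ZNF445 from -0.37 to 0.093, ZNF460 from -0.084 to 0.100, ZNF485 from -0.55 to 0.23, ZNF516 from -0.0098 to 0.26, ZNF581 from -0.021 to 0.21, ZNF592 from -0.10 to 0.16, ZNF626 from -0.045 to 0.16, ZNF638 from -0.40 to 0.13, ZNF653 from -0.089 to 0.12, ZNF687 from -0.15 to 0.16, ZNF69 from -0.69 to 0.031, ZNF746 from -0.062 to 0.043, ZNF76 from -0.14 to 0.19. The cause of these shifts was not tested. No fit with a pairing was made because the labels give no replicate numbers, and with arrays in 2 groups of 2 no array could be tested as standing apart.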
